A study of Oscheius tipulae with 48 samples.

Results

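Among 14558 genes of the free-living nematode Oscheius tipulae, 150 were highest in directly grown adults and were also at 10 RPKM or more in every library of 2 cell and 2-4 cell embryos. RPKM relates the reads of a gene to its length and to the size of the library, so levels may be compared between genes. Values were averaged as log2(RPKM + 1) over 9 groups of libraries: embryos of 2 to 8 cells, of 8 to 64 cells and of 64 to 200 cells, L1 replicates 2 and 3, L2 to L4 larvae, young and mature adults, males, dauer larvae, and post-dauer mature adults. In this grouping 713 genes were highest in adults and 3436 genes passed the floor in the earliest embryos. Both conditions held for 368 genes, and the 150 members are those with the largest margin of adults over L2 to L4 larvae. The remaining 218 of them, and the 3068 genes that passed the floor without being highest in adults, serve below as surroundings. Because these values chose the members, the adult level, the low larval level and the presence in the earliest embryos are given as descriptions, with no test.

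The study followed RNA levels through the life cycle of a species that eliminates part of its genome in early embryos. It comprised 48 libraries of total RNA in 23 groups, depleted of ribosomal RNA. All worms were of strain CEW1, and adult males carried the mutation him-1(sy527) and were handpicked, 200 for each library. Post-dauer worms at the stages L3, L4, young adult and mature adult (2 libraries at each stage) were grown on from dauer larvae (2 libraries), the arrested larval form, which came from liquid culture. Embryos left to develop in medium without food gave L1 larvae (3 libraries). Directly grown L2, L3, L4, young adults and mature adults (2 libraries each) came from arrested L1 larvae that were given bacteria at 20 °C. Embryos were freed by bleach from worms carrying eggs and kept at 25 °C. They gave 3 libraries each of 2-4, 4-8, 8-16, 16-32 and 32-64 cells, 2 libraries of 64-128 cells, and single libraries of 2, 100-150 and 150-200 cells. Males had 2 libraries. Mixed worms (2 libraries) and mixed embryos (1 library) entered no comparison. Replicates are labelled biological with nothing further on separate cultures, so p-values measure the spread between these libraries.

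In nematodes, growing oocytes are filled with RNA made in the adult germline, and the first cell divisions of the embryo run largely on that maternal supply. Much maternal RNA is then removed during cleavage while the embryo's own genes are switched on. The germline itself grows mostly in late larval and adult life, and an adult that carries eggs holds oocytes and young embryos inside its body. RNA of a whole adult therefore includes theirs, and in such bulk samples fewer cells of a type cannot be told apart from less RNA per cell. The table lists genes by ID without names, and no roles are assigned here.

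Some libraries differed from the rest in ways their groups do not give. Genes that are nearly silent throughout (3124 genes with a median under 0.5 RPKM over the libraries) had library medians of 1.37 to 5.32 RPKM in 5 libraries: dauer replicates 1 and 2, and replicate 1 of each post-dauer stage from L3 to young adult. In the other 43 libraries this median was at most 0.54 RPKM. The highest of all was that of post-dauer young adult replicate 1. L1 replicate 1 correlated across genes at 0.879 with 150-200 cell embryos, against 0.756 and 0.770 with the other L1 libraries. Library totals lay between 371389 and 860569 RPKM. Tested differences that involve these libraries are given with and without them, and the levels of dauer and L1 larvae are given library by library.

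The members formed a high plateau in adults and the youngest embryos, and a trough in young larvae. Over the 150 members, the median level was 59.2 RPKM at 2 cells. It was 41.5, 26.8 and 48.8 RPKM in the 3 libraries of 2-4 cells. It was 19.3, 9.87 and 21.6 RPKM at 32-64 cells, and 8.84 and 20.3 RPKM at 64-128 cells. Later cleavage embryos thus lay below every library of 2-4 cells. In L2 larvae the medians were 4.56 and 5.48 RPKM, in L3 larvae 6.84 and 8.31 RPKM, and in L4 larvae 14.9 and 14.5 RPKM. Young adults stood at 58.7 and 40.3 RPKM, and mature adults at 57.9 and 47.4 RPKM. All 150 members were at 10 RPKM or more in each of these 4 adult libraries, against 41 and 48 members in the 2 L2 libraries. Males had medians of 24.4 and 33.3 RPKM, between L4 larvae and adults.

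**Figure D1:**
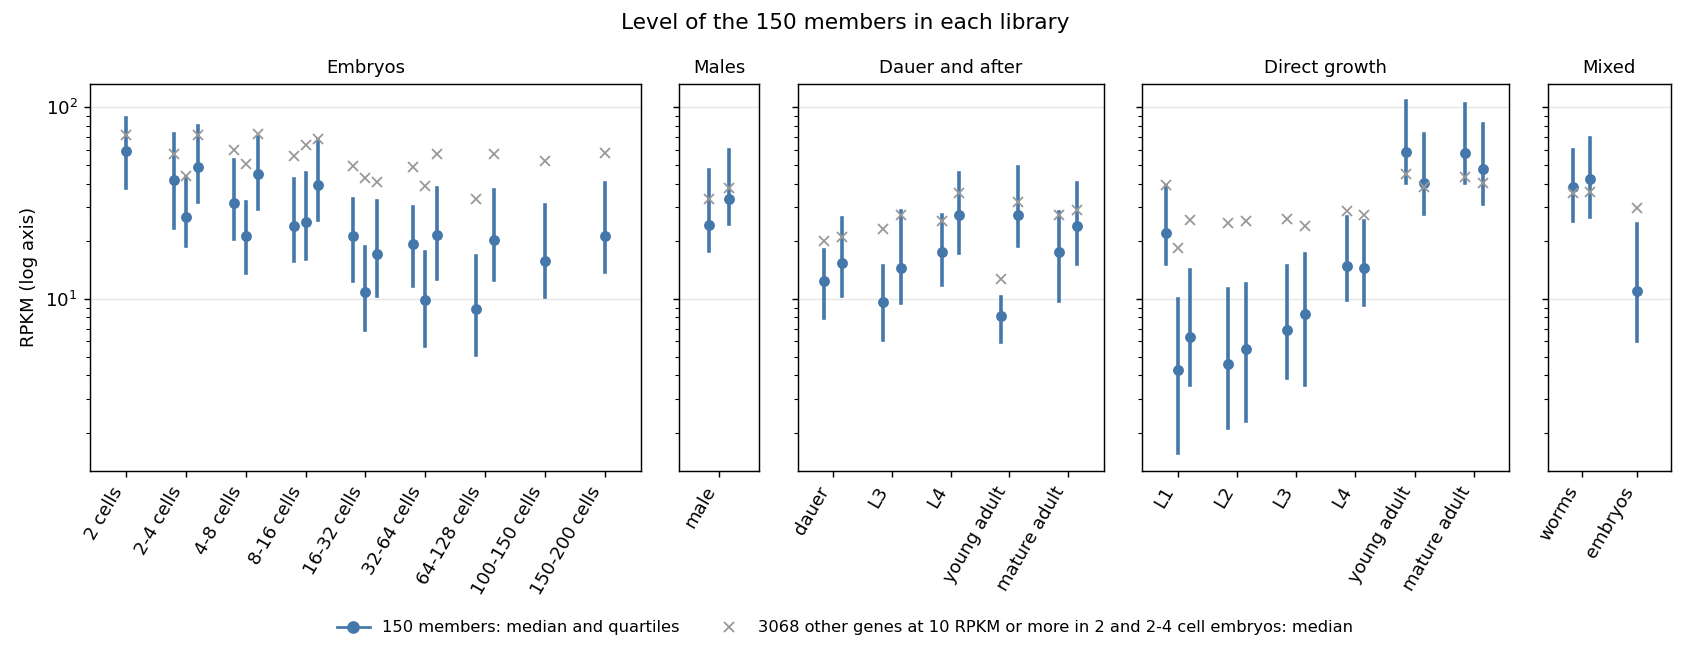
Level of the 150 members in each library, in RPKM on a log axis, with libraries grouped by stage along the x axis; points are the medians over members vertical lines run between the quartiles over members, and crosses are the medians of the 3068 other genes over the floor. The highest medians are those of the 2 cell library (59.2 RPKM) and of replicate 1 of young and mature adults (58.7 and 57.9 RPKM), and the lowest are those of L1 replicates 2 and 3 and of L2 larvae (4.27 to 6.30 RPKM).

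The adult peak was in most cases narrow. The group nearest to the adults was that of embryos of 2 to 8 cells for 101 members, males for 45, embryos of 64 to 200 cells for 3 and post-dauer mature adults for 1. The gap to this next group was under 0.5 on the log2 scale for 114 members, with a median of 0.27. In 47 members the 2 cell library was higher than each of the 4 adult libraries. That count stands without the share of all genes, and nothing is read from its size. Genes over the floor that were not highest in adults had a median of 72.0 RPKM in the 2 cell library. Their medians in the adult libraries were 38.4 to 45.0 RPKM, so a 2 cell level above adults was not confined to the members. Whether RNA in the embryos came from the mother was not tested, and the values show only that it was present at both ends. The highest adult library was mature adult replicate 1 for 82 members, young adult replicate 1 for 58 and mature adult replicate 2 for 10. At the extremes, 9 members were at 10 RPKM or more in all 48 libraries, and 20 were under 1 RPKM in at least 1 library.

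Adult levels of the members, as means of the 4 adult libraries, ran from 15.7 to 1366 RPKM with a median of 52.5 RPKM. They were at least 100 RPKM for 33 members and under 50 RPKM for 69. The highest was Oti_g06410, at 1380.1 and 1075 RPKM in young adults and 1732 and 1276 RPKM in mature adults. It averaged 1366 ± 275 RPKM over those libraries (SD, n = 4). The next, Oti_g04644, had 1778 and 1003 RPKM in young adults and 1383 and 1269 RPKM in mature adults. Both were far above the median member also in the 2 cell library, where Oti_g06410 had 1226 RPKM and Oti_g04644 had 3422 RPKM. For Oti_g04644 that single library lay above every adult library. Together the 150 members took 2.28% to 4.03% of the summed RPKM of an adult library and 3.01% of that of the 2 cell library, against 0.221% and 0.237% in the L2 libraries.

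The largest margin over L2 to L4 larvae was 5.02 on the log2 scale and belonged to Oti_g06282. This gene had 1.07 and 0.65 RPKM in L2, 1.23 and 1.5 RPKM in L3, and 4.22 and 4.32 RPKM in L4 larvae. Young adults had 107 and 57.6 RPKM, and mature adults 171 and 65.3 RPKM. It was at 102 RPKM in the 2 cell library and at 64.0, 65.7 and 128 RPKM in the 2-4 cell libraries, all within the range of the adult libraries. Oti_g04870 came next with a margin of 4.96, at 6.81 and 10.7 RPKM in L2 larvae, 30.2 and 30.6 RPKM in L3 larvae, and 143 and 88.0 RPKM in L4 larvae. It had 1440.5 and 691 RPKM in young adults and 1229 and 839 RPKM in mature adults. Both genes were thus higher at each later stage from L2 to L4, and Oti_g06282 stayed under 5 RPKM in every L2, L3 and L4 library.

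The lower end of the margin was 1.43, with a median margin of 2.65. The last members inside were Oti_g11055, at a mean of 30.9 RPKM in adults and 10.5 RPKM in L2 to L4 larvae, and Oti_g11593, at 37.7 and 13.4 RPKM in the same groups. The next genes outside were Oti_g10778, at 159 RPKM in adults and 61.5 RPKM in larvae, and Oti_g01756, at 44.3 and 17.4 RPKM. Their margins of 1.42 are almost the same, so the boundary divides a continuous range. The floor in the earliest embryos divided more: 174 further adult-highest genes had a margin at least as large and missed it, 35 of them with a lowest value of 5 to 10 RPKM. The members nearest to the floor were Oti_g09625, with 10.1 RPKM in its lowest library of 2-4 cells and 48.3 RPKM in its highest, and Oti_g07451, with 10.3 RPKM in its lowest and 28.0 RPKM in its highest.

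Nearly all members were lower at 64-128 cells than at 4-8 cells, and 49 of 150 fell by the test. Between 64-128 and 4-8 cells the median change over the 150 members was -1.35 on the log2 scale, with quartiles of -1.68 and -0.78, against 0.15 over all 9332 genes tested. Under limma with Benjamini-Hochberg adjustment over all genes, 49 members were called lower, which takes an adjusted p under 0.05 together with a change of 1 or more on the log2 scale. That is 32.7% of the members, where 6.09% of all genes were called lower. None was called higher, where 14.1% of all genes were, and none was higher in every library, where 32.8% of all genes were. Both stages entered the choice of members, through means of embryo groups that had to stay under the adult mean, so this absence is partly fixed by the choice and nothing is read from it. In 78 members (52%) both libraries of 64-128 cells lay under all 3 libraries of 4-8 cells, as they did in 18.8% of all genes. At an unadjusted p under 0.05 there were 82 members, a count without the share of all genes beside it, from which nothing is read.

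A floor in the earliest embryos favours genes that decline later, so the other genes over the same floor are the closer surroundings. Of the 3068 that were not highest in adults, 14.9% were called lower, with a median change of -0.55. Of the 218 further adult-highest genes, 5 (2.29%) were called lower, with a median of -0.40. Both libraries of 64-128 cells lay under all 3 libraries of 4-8 cells in 38.8% of the 3068 genes and 19.7% of the 218. The quartiles of the members reached from -1.68 to -0.78, and those of the 3068 genes from -1.0 to -0.04. The difference between these sets was not tested. The count also rests on single libraries: it was 0 without 4-8 cell replicate 1 and 0 without 64-128 cell replicate 1, with median changes of the members between -1.90 and -0.64 when 1 library at a time was left out. It was 31 without 4-8 cell replicate 2 and 24 without replicate 3.

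The member that fell most was Oti_g06593. It had 1.36 and 16.3 RPKM at 64-128 cells, against 64.1, 20.7 and 51.4 RPKM at 4-8 cells, a log2 change of -2.71 ± 0.81 (SE; limma adjusted p = 0.0285). The groups do not overlap, but the 2 libraries of 64-128 cells lie far apart, and without replicate 1 of that stage the change was -1.28 with an adjusted p of 0.355. Oti_g01294 had 101 and 267 RPKM at 64-128 cells, against 1079, 739 and 846 RPKM at 4-8 cells, a change of -2.41 ± 0.61 (SE; limma adjusted p = 0.0159). Every library of the older stage was far under every library of the younger. Without 64-128 cell replicate 1 its change was -1.71 with an adjusted p of 0.133, and without 4-8 cell replicate 1 the adjusted p was 0.0681.

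The 2 members of largest margin over larvae were among those called. Oti_g06282 had 11.2 and 24.8 RPKM at 64-128 cells, against 47.8, 64.6 and 110.1 RPKM at 4-8 cells, a log2 change of -2.0 ± 0.51 (SE; limma adjusted p = 0.0168). Oti_g04870 had 63.8 and 143 RPKM at 64-128 cells, against 199, 383 and 511 RPKM at 4-8 cells, a change of -1.82 ± 0.56 (SE; limma adjusted p = 0.0339). Oti_g06410, the most abundant in adults, had 195 and 407 RPKM at 64-128 cells, against 822, 659 and 1015 RPKM at 4-8 cells (log2 change -1.54, limma adjusted p = 0.0188). These groups do not overlap. Oti_g04644, nearly as abundant in adults, had 89.8 and 601 RPKM at 64-128 cells, against 714, 261 and 2347 RPKM at 4-8 cells, and the change of -1.70 ± 1.06 (SE) did not pass (limma adjusted p = 0.25). Its libraries differed by more within each stage than the stages did on average.

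In 7 members the change was above 0, and none of these passed the test. The largest was that of Oti_g11637, with 31.5 and 71.4 RPKM at 64-128 cells, against 27.4, 20.6 and 70.9 RPKM at 4-8 cells, a log2 change of 0.46 ± 0.62 (SE; limma adjusted p = 0.604). Next came Oti_g06089, with 13.2 and 42.3 RPKM at 64-128 cells, against 12.1, 11.6 and 37.0 RPKM at 4-8 cells (log2 change 0.43, limma adjusted p = 0.673). In both genes the replicate 3 libraries were the high ones at each stage, and the stages overlap.

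At 32-64 cells the decline was already present but less of it passed. The median change of the members against 4-8 cells was -1.03, with quartiles of -1.31 and -0.63, and that of all genes was 0.17. Of the members, 6 were called lower (4%), where 0.75% of all genes were called lower, and none was called higher, where 1.96% of all genes were. In 59 members (39.3%) every library of 32-64 cells lay under every library of 4-8 cells, against 12.1% of all genes, and in none above, against 17.8% of all genes. The mean of 8 to 64 cells was also held under the adult mean by the choice, and nothing is read from the absence of members called higher. At an unadjusted p under 0.05 there were 68 members, again without the share of all genes, and nothing is read from this count. Of the 3068 other genes over the floor, 2.09% were called lower, with a median change of -0.40, and of the 218 further adult-highest genes none was, with a median of -0.35. Every library of 32-64 cells lay under every library of 4-8 cells in 28% of the 3068 genes and 16.1% of the 218.

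Libraries of the same number deviated together at these 2 stages, so the numbers pair them. In a limma fit with that number as a replicate block, 78 members were called lower (52%), where 6.05% of all genes were, and 0 higher, where 17.6% of all genes were. Paired by number, 134 of the 150 members were lower at 32-64 cells than at 4-8 cells in all 3 pairs, as were 62.5% of the 3068 other genes over the floor. The median changes of the members within pairs were -0.80, -1.08 and -1.25. The count of 6 without the block was 31 without 32-64 cell replicate 1 and 2 without 4-8 cell replicate 3, and it was 0 without any of the other 4 libraries.

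**Figure D2:**
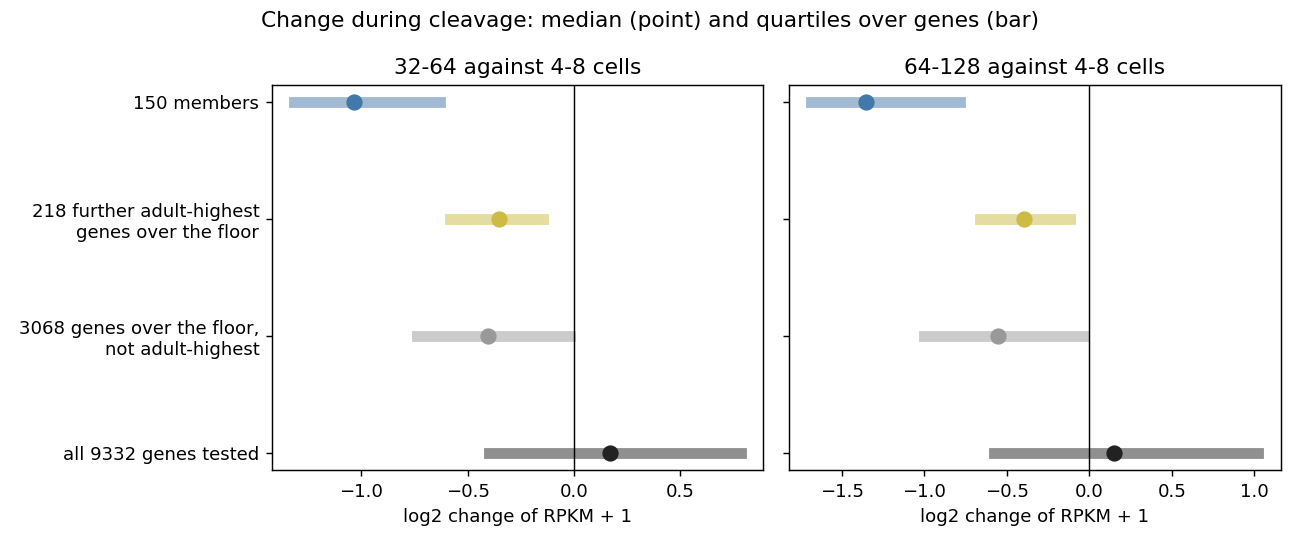
Change in log2(RPKM + 1) from 4-8 cells to 32-64 cells (left) and to 64-128 cells (right), as the median (point) and quartiles (bar) over genes, for the members, both sets of other genes over the floor and all genes tested. The members have the lowest medians of the 4 sets at both stages, -1.03 and -1.35.

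The 2 members of largest fall at 32-64 cells that passed had close replicates. Oti_g08210 had 12.2, 10.8 and 14.9 RPKM at 32-64 cells, against 37.1, 49.8 and 43.6 RPKM at 4-8 cells, a log2 change of -1.71 ± 0.35 (SE; limma adjusted p = 0.0397). Oti_g04925 had 12.9, 9.49 and 14.6 RPKM at 32-64 cells, against 29.4, 39.8 and 45.7 RPKM at 4-8 cells, a change of -1.56 ± 0.36 (SE; limma adjusted p = 0.0416). In both genes the stages are well separated. Their adjusted p was 0.0018 and 0.0020 with the replicate block and up to 0.211 in both when 1 library was left out. The largest positive change, in Oti_g11712, did not pass: 29.1, 19.1 and 31.7 RPKM at 32-64 cells, against 27.2, 9.52 and 26.6 RPKM at 4-8 cells (log2 change 0.42, limma adjusted p = 0.594).

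The 2 oldest embryo stages are single libraries and allow no test. The median of the members was 15.7 RPKM at 100-150 cells and 21.4 RPKM at 150-200 cells. In 145 members the older library was the higher, as it was in 71.0% of the 3068 other genes over the floor. Median differences were 0.41 on the log2 scale for the members and 0.11 for those genes. In L1 larvae the 3 libraries disagreed, with medians of 22.1, 4.27 and 6.30 RPKM for replicates 1, 2 and 3. Replicate 1, the library that stood near 150-200 cell embryos, was above both others in all but 8 members, against 30.3% of all genes and 65.6% of the 3068 genes. Oti_g08252 shows the gap, at 134, 3.10 and 2.07 RPKM in replicates 1, 2 and 3.

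Nearly all members were higher in L4 than in L2 larvae, although none passed the test. The median difference of L4 over L2 larvae was 1.43 on the log2 scale, with quartiles of 0.73 and 2.08, against -0.12 over all 14446 genes tested, and it was above 0 for 148 of the 150 members. The choice of members used their mean over L2 to L4 and not the difference between these stages. It favoured genes that are low in these larvae and high in adults, so a rise towards L4 is not free of the choice. The 218 further adult-highest genes differ from the members by that same margin. In 139 members (92.7%) both L4 libraries were above both L2 libraries, as they were in 24.6% of all genes, and in 1 member both were below, against 36.8% of all genes. The order L2 below L3 below L4 held in every library for 71 members, against 5.39% of all genes. The median difference was 0.23 in the 218 further adult-highest genes and 0.11 in the 3068 other genes over the floor. Both L4 libraries were above both L2 libraries in 49.1% of the 218 genes and 40.2% of the 3068. Both were below in 5.96% and 21.4% of these sets.

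These differences were tested in the limma fit over all larval, dauer and adult groups, which shares 1 estimate of the spread. It called 0 members in either direction, where 0.0415% of all genes were called higher and 0.0138% lower. An unadjusted p under 0.05 was found for 69 members, a count without the share of all genes, from which nothing is read. With only the 2 stages in the fit, limma called 89 members higher (59.3%) and 0 lower, where 8.84% of 11504 genes were called higher and 5.06% lower. The wider fit takes its spread from all 12 groups, and the narrower from these 4 libraries alone. With a pseudocount of 0.1 RPKM the median was 1.78, with quantile normalization 1.23, and it was 1.26 to 1.47 when 1 library was left out.

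The largest difference was that of Oti_g04644, with 354 and 265 RPKM in L4 larvae, against 26.4 and 19.7 RPKM in L2 larvae, a log2 change of 3.69 ± 1.11 (SE; limma adjusted p = 0.619). L3 larvae were between, at 80.0 and 82.2 RPKM. The libraries of each stage lay close together beside the distance between stages, and with the spread shared over all groups the gene did not pass. Oti_g01294 was at 309 and 222 RPKM in L4 larvae, against 23.2 and 33.9 RPKM in L2 larvae (log2 change 3.18, limma adjusted p = 0.464). At the other end Oti_g06296 was at 9.80 and 9.77 RPKM in L4 larvae, against 12.4 and 11.4 RPKM in L2 larvae, a difference of -0.26 (limma adjusted p = 1). It was the single member with both L4 libraries under both L2 libraries.

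The larger the larval difference of a member, the more negative in general was its embryonic change. Across the 150 members, the L4 to L2 difference and the change of 64-128 against 4-8 cells had a Pearson correlation of -0.66 and a Spearman correlation of -0.67. The 2 measures share no library, but genes are not independent replicates, so this is a description. The same correlation across the 3068 other genes over the floor was -0.57 (Spearman -0.55), so the relation was not confined to the members. In the 50 members with the smallest larval difference (median 0.57) the median embryonic change was -0.64. In the middle 50 (median 1.43) it was -1.35, and in the 50 with the largest (median 2.42) it was -1.69. With 32-64 cells in place of 64-128 cells the medians of the same sets were -0.59, -1.15 and -1.31. Mean level over the libraries was weakly related to the embryonic change (Pearson -0.08, Spearman 0.003).

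**Figure D3:**
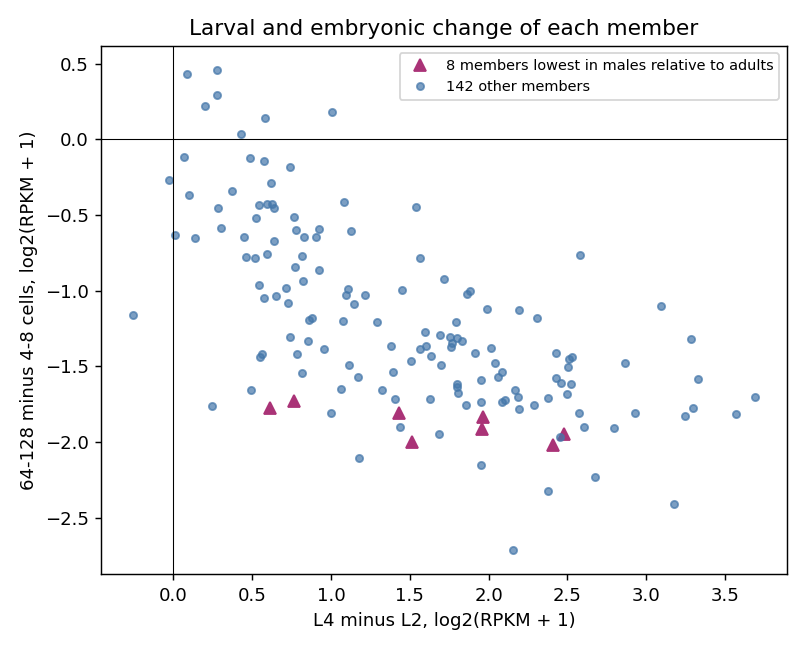
Each point is a member, placed by its difference of L4 over L2 larvae (x axis) and of 64-128 over 4-8 cell embryos (y axis), both in log2(RPKM + 1); triangles are the 8 members lowest in males relative to adults. Points run from upper left to lower right (Pearson -0.66, n = 150), and the 8 triangles lie from -2.02 to -1.73 on the y axis.

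No member differed between mature and young adults by the test. The median difference of mature over young adults was 0.15 on the log2 scale, against -0.15 over all genes, and the members' quartiles were 0.02 and 0.33. Limma called 0 members and 0% of all genes in either direction, and 0 members were at an unadjusted p under 0.05. In 42 members (28%) both mature adult libraries were above both young adult libraries, against 6.4% of all genes, and in none below, against 19.7%. In the 218 further adult-highest genes these shares were 22.5% and 2.75%, so the members were near them. In the 3068 other genes over the floor they were 15.6% and 13.4%. Leaving out young adult replicate 2 gave a median difference of -0.10 and leaving out replicate 1 gave 0.41. The sign of that median thus rests on the young adult libraries. Oti_g11354 had the largest difference, at 73.7 and 56.6 RPKM in mature adults, against 40.2 and 36.9 RPKM in young adults (log2 change 0.73 ± 0.65, SE; limma adjusted p = 1). The most negative was that of Oti_g06908, at 41.2 and 43.8 RPKM in mature adults, against 108 and 33.7 RPKM in young adults (-0.50, limma adjusted p = 1). In that gene the mature adults lie between the young adult libraries.

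Most members were also found in males. The difference of males against the mean of the 4 adult libraries, which the choice of members holds under 0, had a median of -0.70 on the log2 scale and ran from -3.70 to -0.01. It was within 1 of the adults for 112 members. Among the 3068 other genes over the floor the median was -0.24. The choice does not hold those genes under the adults, so nothing is read from this contrast. Oti_g11637 was nearly level, at 67.3 and 82.9 RPKM in males, against 97.4 and 48.1 RPKM in young adults and 103 and 67.2 RPKM in mature adults. So was Oti_g06641, at 103 RPKM in each male library, against 108 and 90.2 RPKM in young adults and 124 and 101 RPKM in mature adults. Males are of another genotype than the adults, so sex and the him-1 mutation cannot be told apart.

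A small set was far lower in males. Under a limit of -2 chosen after the values were seen there were 8 members, with differences of -3.70 to -2.17, and the next member was at -1.68. In the 3068 other genes over the floor 11 were that low. Those genes are by choice not highest in adults while the members are, so nothing is read from this contrast. Of the 8 members Oti_g08252 was the lowest, at 15.1 and 21.4 RPKM in males, against 215 and 175 RPKM in young adults and 375 and 257 RPKM in mature adults. Oti_g06282, the member of largest margin over larvae, followed with 4.91 and 11.6 RPKM in males, against the adult values given above. Both had been high in the 2 cell library, at 307 and 102 RPKM. The 8 had log2 changes of -2.02 to -1.73 between 64-128 and 4-8 cells, a comparison in which the male libraries had no part. The upper end is taken from the 8 themselves, and 23 of the other members were at or below it. Across all 150 members the male difference and this embryonic change correlated at 0.39 (Spearman 0.41), and across the 3068 genes at 0.35.

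Library medians of these 8 are set beside those of all other members as a description, since the limit itself makes the 8 low in males relative to adults. In males the medians of the 8 were 11.3 and 17.3 RPKM and those of the others were 28.6 and 35.2 RPKM. In post-dauer mature adults they were 8.45 and 13.2 RPKM for the 8, and 18.3 and 25.5 RPKM for the others. In mature adults that grew directly they were 133 and 78.6 RPKM for the 8, and 57.1 and 45.8 RPKM for the others. That limit favours a low male level and a high adult level within each gene. It does not by itself set the order of the 8 and the others in males or direct adults, and nothing is read from that order. In mixed worms, which the limit did not use, the 8 were the higher set, at 67.6 and 71.8 RPKM for the 8, and 38.2 and 42.1 RPKM for the others. Outside males and direct adults the 8 had the lower median in 29 of 42 libraries. These included 12 of the 13 libraries of 64 to 200 cell embryos and L1 to L4 larvae. They also included both post-dauer L3 and both post-dauer young adult libraries. A low level of the 8 was thus not confined to males and post-dauer mature adults. The L2 to L4 libraries are not free of the choice of members, since they set the margin. In 2-4 cell embryos the order varied, at 69.1, 30.7 and 38.7 RPKM for the 8, and 40.5, 26.6 and 49.6 RPKM for the others. In post-dauer L4 larvae the libraries disagreed, with 10.1 and 34.2 RPKM for the 8, and 17.9 and 27.1 RPKM for the others.

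**Figure D4:**
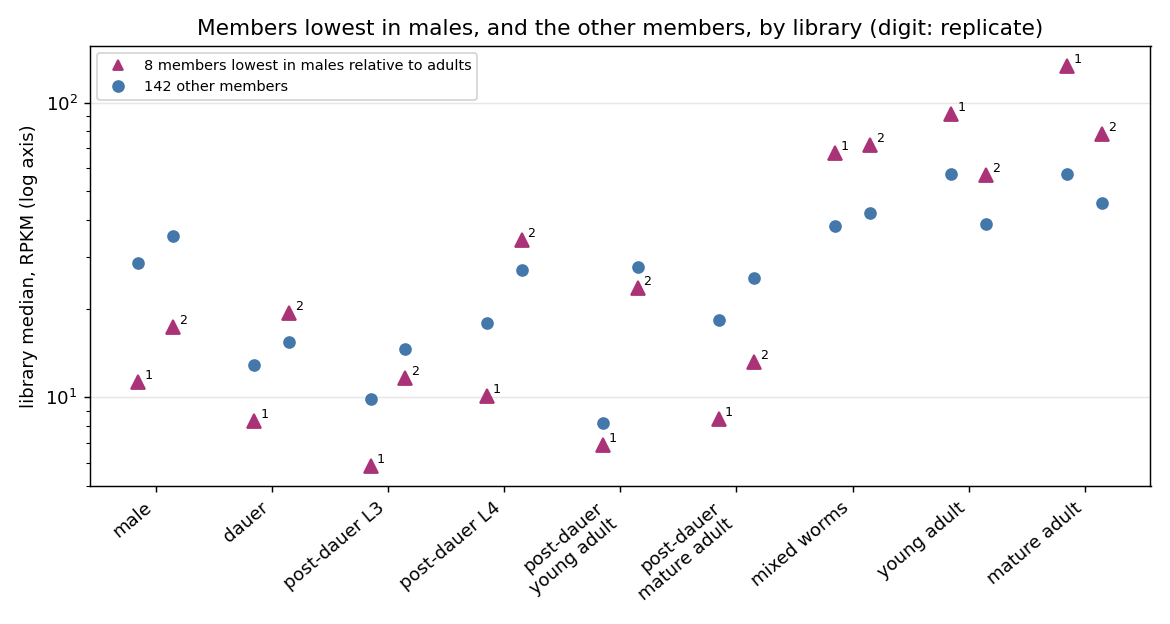
Library medians in RPKM (log axis) of the 8 members lowest in males (triangles) and of all other members (circles), by group along the x axis, with the replicate number beside each triangle. Triangles are under circles in both male and both post-dauer mature adult libraries and above them in mixed worms, young adults and mature adults.

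Most members were also higher in post-dauer L4 than in post-dauer L3 larvae, and none passed the test. Between post-dauer L4 and post-dauer L3 larvae, neither of which entered the choice of members, the median difference was 0.84 on the log2 scale, with quartiles of 0.59 and 1.17, against -0.09 over all genes. It was above 0 for 143 of 150 members. In 90 members (60%) both post-dauer L4 libraries were above both post-dauer L3 libraries, as in 16.7% of all genes, and in 1 below, against 18.4%. Limma called 0 members in either direction, where 0% of all genes were called higher and 0.0138% lower. An unadjusted p under 0.05 was found for 8 members, without the share of all genes beside it. The median was 0.24 in the 3068 other genes over the floor and 0.18 in the 218 further adult-highest genes. Both post-dauer L4 libraries were above both post-dauer L3 libraries in 32.3% of the 3068 genes and 21.6% of the 218. Both were below in 11% of each set. Replicate 1 of both stages was among the libraries in which silent genes were raised. The median of the members was 0.56 without post-dauer L3 replicate 1, 1.20 without post-dauer L4 replicate 1, and 0.86 without both and replicate 1 of L1, dauer, young adults and post-dauer young adults. It was 0.98 when each library was lowered by its silent-gene median, and 0.53 without post-dauer L4 replicate 2.

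The gene of largest difference was Oti_g06383, at 21.9 and 25 RPKM in post-dauer L4 larvae, against 4.92 and 4.29 RPKM in post-dauer L3 larvae, a log2 change of 2.13 ± 0.79 (SE; limma adjusted p = 0.380). The 4 libraries separate clearly by stage, and it did not pass after adjustment. Oti_g04644 was at 668 and 506 RPKM in post-dauer L4 larvae, against 77.0 and 368 RPKM in post-dauer L3 larvae. There the post-dauer L3 libraries differed more from each other than the post-dauer L4 libraries did. The most negative difference was that of Oti_g08298, at 15.6 and 10.7 RPKM in post-dauer L4 larvae, against 17.9 and 17.7 RPKM in post-dauer L3 larvae (-0.43, limma adjusted p = 0.925).

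No member was called higher or lower in adults after dauer. The medians of the members were 8.12 and 27.4 RPKM in post-dauer young adults, and 17.7 and 27.3 RPKM in post-dauer L4 larvae. The median difference was -0.52 on the log2 scale, against 0.21 over all genes, and limma called 0 members and 0% of all genes in either direction, with 0 members at an unadjusted p under 0.05. In 2 members (1.33%) both post-dauer young adult libraries were above both post-dauer L4 libraries, against 12.5% of all genes, and in 6 (4%) below, against 6.08%. In the 218 further adult-highest genes these shares were 0.917% and 7.8%, and in the 3068 other genes over the floor 1.86% and 12%. The 2 young adult libraries pull apart. Replicate 1 was under both post-dauer L4 libraries in 132 members, and replicate 2 was above both in 64. Both counts stand without the share of all genes, and nothing is read from their size. Genes over the floor that were not highest in adults had medians of 12.7 and 32.2 RPKM in post-dauer young adult replicates 1 and 2. Their post-dauer L4 medians were 25.6 and 35.7 RPKM, so a low replicate 1 was not confined to the members.

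In replicate 1, in which silent genes had a median of 5.32 RPKM, 81 members lay within 3 RPKM of that median, and in replicate 2 none lay as near to its own. Without replicate 1 the median difference of the members was 0.35, the opposite sign, and it was -0.04 when post-dauer L4 replicate 1 and replicate 1 of L1, dauer, young adults and post-dauer L3 were left out as well. Without replicate 2 it was -1.28, and limma then called 28 members lower (18.7%), where 6.28% of all genes were called lower and 7.82% higher. Oti_g06410 shows this most, at 26.6 and 683 RPKM in post-dauer young adults, against 530 and 795 RPKM in post-dauer L4 larvae, a change of -2.24 ± 1.07 (SE; limma adjusted p = 0.825). It was 0.07 without replicate 1. The largest positive difference was that of Oti_g05479, at 8.98 and 24.4 RPKM in post-dauer young adults, against 16.9 and 3.27 RPKM in post-dauer L4 larvae (0.86, limma adjusted p = 0.831), and these groups overlap.

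Post-dauer mature adults had medians of 17.7 and 24.0 RPKM, close to those of post-dauer L4 larvae. The median difference was -0.16, against -0.13 over all genes, and limma called 0 members and 0% of all genes in either direction, with 1 member at an unadjusted p under 0.05. In 8 members (5.33%) both mature libraries were above both post-dauer L4 libraries, against 12.7% of all genes, and in 17 (11.3%) below, against 19.3%. In the 218 further adult-highest genes these shares were 14.7% and 11.9%, and in the 3068 other genes over the floor 12.8% and 20%. The sign of the median was positive without post-dauer L4 replicate 2 (0.17) and without post-dauer mature adult replicate 1 (0.12), and it was -0.49 without post-dauer L4 replicate 1, in which silent genes were raised. Oti_g02959, one of the 8 lowest in males, had the most negative difference, at 1.22 and 3.07 RPKM in post-dauer mature adults, against 5.27 and 9.83 RPKM in post-dauer L4 larvae (-1.45 ± 0.60, SE; limma adjusted p = 0.999). The groups are separate but the gene did not pass. Oti_g05479 had the largest, at 16.9 and 30.8 RPKM in post-dauer mature adults, against 16.9 and 3.27 RPKM in post-dauer L4 larvae (1.45, limma adjusted p = 0.999).

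Set beside directly grown worms, the adults after dauer were low in nearly every member. The choice of members caps post-dauer mature adults under the direct adults. It also favours genes that are high in the directly grown young and mature adult libraries. Both comparisons are therefore descriptions, and nothing is read from their distance to all genes. Both post-dauer mature adult libraries were under both mature adult libraries in 148 members, as in 21.4% of all genes. Both post-dauer young adult libraries were under both young adult libraries in 143 members, as in 15.3% of all genes. Post-dauer young adult replicate 2 alone, whose silent genes were not raised, was under both young adult libraries in 144 members. The share of all genes is not given for that count, and nothing is read from its size. Dauer larvae had medians of 12.5 and 15.4 RPKM and the L3 larvae that followed them 9.68 and 14.6 RPKM, and in both groups silent genes were raised in at least 1 library.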

How the data were processed

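The authors deposited 1 table of RPKM values for 14558 gene IDs in 48 library columns, all of which could be assigned to a stage from the labels. The unit was taken from the values. The submitters' processing notes name HTSeq 2.0.2, StringTie 2.2.0, STAR 2.7.10 and Bowtie2 2.4.2, without saying what each did. Neither build nor annotation is stated in the sources used here. Gene names, marker lists and sequences were not used here. Reads shared by near-identical or overlapping genes cannot be told apart.

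Read counts are not in the table. Low values show steps left by single reads, clear in 21 of 47 libraries compared, but they give relative depth only up to a small whole factor, so no depth is given.

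The members and lists were chosen with earlier results of these data known. Tests used limma 3.58.1 (R 4.3.3) on log2(RPKM + 1), with trend and robust moderation, in 1 fit of 17 libraries in 6 replicated embryo stages and 1 of 25 libraries in 12 larval, dauer and adult groups. A gene entered a fit when 2 or more of its libraries reached 1 RPKM, which left 9332 and 14446 genes, and all 150 members passed in both. Calls needed a log2 change of 1 or more in either direction and, over all genes tested, a Benjamini-Hochberg p under 0.05. A change on this scale understates that of low genes.

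Genes were named by rule: in each comparison up to 2 called members per direction with separate groups and at least 10 RPKM in the higher group, by size of change, or the single largest change as values. As description, the 2 extremes of adult level, margin, embryonic minimum, embryonic change and male level were added. A member named for a rule may be described in other comparisons.

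For embryos, replicate numbers were read from the library descriptions. The titles give other numbers to some libraries of 16-32 and 64-128 cells and to the single libraries of 2, 100-150 and 150-200 cells. For 4-8 and 32-64 cells both sources give the same numbers. Deviations from group means correlated across genes at 0.776, 0.570 and 0.689 between same-numbered libraries of 32-64 and 4-8 cells, so these numbers pair the libraries. For L2 to L4 larvae the digits in column names and labels differ, so these libraries have no replicate number.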

Additional observations from a re-analysis of the deposited data

Results flagged for a closer look

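The libraries of mixed stages stand outside all comparisons, and the members were present in them. The median level of the 150 members was 38.565 RPKM in mixed worms replicate 1 and 42.365 RPKM in replicate 2, and all 150 were at 10 RPKM or more in both, as were 36.6% of all genes. In mixed embryos the median was 10.965 RPKM, with 87 members at 10 RPKM or more. Mixed worms lay between males and mature adults, and mixed embryos near the lower of the 2 libraries of 64-128 cells. No group had 4 to 10 libraries, so no Dixon test for a library far from the others of its group could be made.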

How the results depend on the processing

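Counts of called members depended on the setting in both embryo comparisons. At 64-128 against 4-8 cells, where 49 were called, the count was 32 with no filter on low values, 95 with quantile normalization and 111 with the replicate block, where 2.84%, 13.1% and 15.1% of all genes were called lower, against 6.09% before. It was 0 to 33 when 1 library was left out. Its numbers form only 2 pairs, with same-number correlations of 0.126 and 0.582, and 64-128 cell replicate 1 correlated better with 4-8 cell replicate 2 (0.521), so that block rests on a shared number alone. At 32-64 against 4-8 cells, where 6 were called, it was 0 with a pseudocount of 0.1 RPKM, 0 with no filter, 0 with only the groups compared in the fit, 57 with quantile normalization, 78 with the replicate block and 17 without 16-32 cell replicate 3, a library whose summed RPKM was the highest (5.72%, 6.05% and 2.43% of all genes lower, against 0.75% before), and 0 to 31 when 1 library was left out. The block changed no call outside the embryos. L4 against L2 gave 89 members with only the groups compared in the fit. Leaving out 1 library gave 0 to 28 for post-dauer young adults against post-dauer L4 larvae. Without a set of 6 libraries (replicate 1 of L1, dauer and young adults and of the post-dauer stages L3, L4 and young adult), 1 member was called lower in post-dauer mature adults against post-dauer L4 larvae, where 0.124% of all genes were. The cause was not tested. Quantile normalization brought the median change of all genes from 0.15 to -0.07 at 64-128 cells and from 0.17 to -0.04 at 32-64 cells, and that of the members to -1.64 and -1.22. A library left alone in its group was taken to have the spread of the other groups.

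With 1 library left out, 3 median changes took both signs. Post-dauer young adults against post-dauer L4 larvae ranged from -1.28 to 0.35 (the positive end without post-dauer young adult replicate 1), post-dauer mature adults against post-dauer L4 larvae from -0.49 to 0.17 (0.17 without post-dauer L4 replicate 2, 0.12 without post-dauer mature adult replicate 1), and mature against young adults from -0.10 (without young adult replicate 2) to 0.41. So did 5 of the genes named, none of them called: Oti_g11637 at 64-128 cells from -0.12 to 1.04, Oti_g11712 at 32-64 cells from -0.044 to 0.67, Oti_g05479 in post-dauer young adults from -0.17 to 1.90, Oti_g06410 there from -4.56 to 0.074, and Oti_g06908 from -1.33 to 0.33, 0.33 being the value without young adult replicate 1 and without the set of 6 libraries that holds it. Subtracting the silent-gene median, chosen after seeing the data, gave a median of -1.17 for post-dauer young adults against post-dauer L4. The rule itself kept 111 members with quantile normalization, 113 to 135 without 1 adult library, 123 without young adult and dauer replicate 1 together, and all 150 with a pseudocount of 0.1 RPKM or with L1 replicate 1 included.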

Other observations

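Among the 150 members, 9 pairs have consecutive ID numbers, involving 17 members. Oti_g02958 and Oti_g02959 are such a pair, and both are among the 8 lowest in males. The 218 further adult-highest genes over the floor hold 13 such pairs. How ID numbers relate to position in the genome is not given in the sources used here.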
